A study of Homo sapiens with 3 samples.

Results

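Proteoglycan core proteins, hyaluronan synthase 2 and the hyaluronan receptor CD44 were examined in LX-2 cells, an established human hepatic stellate cell line, cultured with vehicle or with recombinant human FGF19 (rhFGF19). The 10 genes were named by symbol as BGN, DCN, VCAN, HSPG2, SDC1, SDC2, SDC4, GPC1, HAS2 and CD44. The 9 analysed here were found among 24254 gene symbols, and DCN was not analysed here. Poly(A) mRNA of 1 vehicle culture, 1 culture at 50 ng/mL rhFGF19 and 1 culture at 100 ng/mL rhFGF19 was sequenced, so that no difference between conditions has a replicate check. The sample titles give these doses, whereas the free-text descriptions exchange them and give 72 and 73 h of stimulation, and the publication describes 24 h. Doses follow the titles here, and the duration is uncertain. A cell line grown alone lacks the hepatocytes, sinusoidal endothelium and immune cells of the liver.

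Proteoglycans are core proteins that carry glycosaminoglycan chains. Syndecans and glypicans display heparan sulfate on the cell surface, where it holds many FGF ligands against their receptors, and perlecan carries it in the matrix. FGF19 is an endocrine FGF with weak affinity for heparan sulfate that signals mainly through FGFR4 with the co-receptor β-klotho (KLB). Hyaluronan is made without a core protein at the plasma membrane, binds CD44 on cells and versican in the matrix, and accumulates with proteoglycans when stellate cells lay down scar matrix in the liver.

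Expression was given as FPKM (fragments per kilobase of transcript, scaled to library size), a level per transcript length that allows genes to be compared within a library. Values in threes are in the order vehicle, 50 and 100 ng/mL, and fold changes in pairs compare 50 and then 100 ng/mL rhFGF19 with vehicle. The FPKM summed to 302243, 276690 and 281606, and the number of reads behind them is not given. Fewer genes were detected in vehicle, with 8890, 10925 and 10894 entries of at least 1 FPKM and 5814, 3966 and 3959 entries at 0. Of the 17 stellate cell and fibroblast markers, 11 had a mean of at least 0.5 FPKM, and their summed level was 873, 997 and 996 FPKM. VIM was the most abundant, at 439, 654 and 649 FPKM, and COL1A1 had 78.4, 108 and 104 FPKM. COL3A1 had 1.79, 4.15 and 4.3 FPKM and PDGFRB 3.86, 5.78 and 5.25 FPKM. HAND2 had 1.41, 2.28 and 2.52 FPKM and LHX2 0.88, 1.33 and 1.48 FPKM. Other markers of this list were lower with rhFGF19, with 223, 118 and 126 FPKM for TAGLN, 73.2, 62.9 and 64.1 for COL6A1, 29.7, 20.6 and 21.1 for THY1, 13.4, 11.3 and 10.1 for NGFR and 8.55, 8.01 and 7.74 for ACTA2. Several markers that define stellate cells were nonetheless at or near 0, with LRAT listed at 0 in each library, DES at 0, 0 and 0.08 FPKM, PDGFRA at 0.01, 0.09 and 0.04 FPKM and COL1A2 at 0.03, 0.1 and 0.14 FPKM. Of the 6 epithelial markers 3 passed the same level, with sums of 504, 309 and 303 FPKM, led by KRT18 at 382, 226 and 224 FPKM, while CDH1 did not exceed 0.01 FPKM. Of the 6 leukocyte markers 2 passed, led by CD68 at 47.5, 44.2 and 39.8 FPKM. Of the 7 hepatocyte markers 2 passed, led by SERPINA1 at 8.93, 9.62 and 9.11 FPKM. Of the 5 endothelial markers 0 passed. TEK had the highest mean of these, with 0.24, 0.56 and 0.58 FPKM, although VWF was higher in vehicle, with 0.47, 0.28 and 0.39 FPKM. The part of the keratin difference between libraries in the results that follow was not tested.

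SDC1, SDC4, GPC1 and CD44 had far more message than the other genes of the set. In the vehicle library the order was SDC1, SDC4, GPC1, CD44, HSPG2, then SDC2 and HAS2 at the same value, VCAN and BGN, and SDC1 ranked 360th of all symbols. In both rhFGF19 libraries the first 4 places went to SDC4, CD44, SDC1 and GPC1, and SDC4 ranked 164th and 165th in them. SDC1 and SDC4 were nearly level in vehicle, as were SDC1 and CD44 at 100 ng/mL, with SDC4 at 0.973 times SDC1 and CD44 at 1.02 times SDC1. Neighbours that close cannot be put in order with 1 library each.

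**Figure D1:**
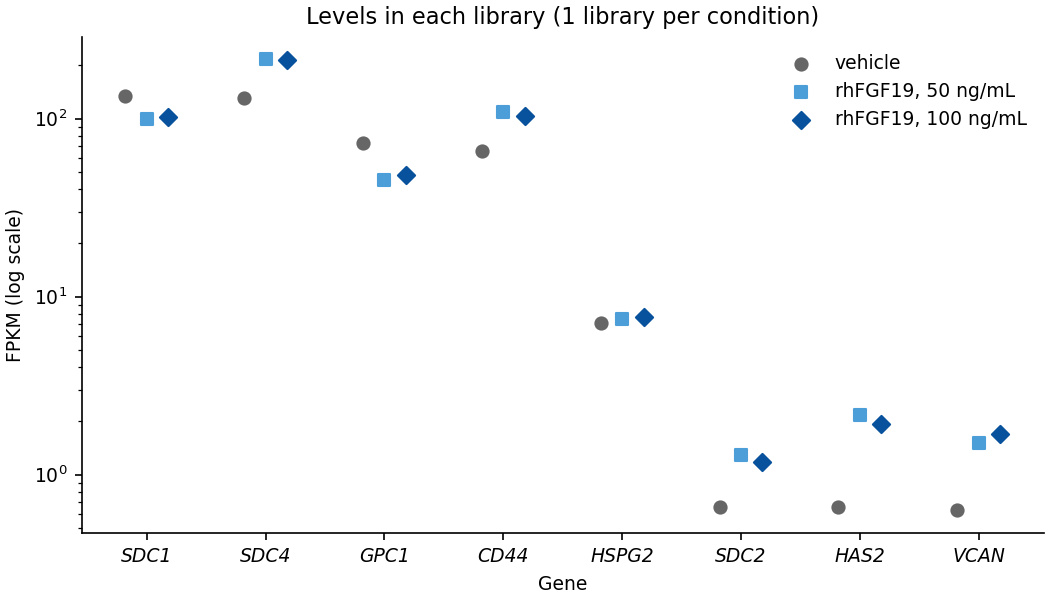
FPKM on a log axis of the 8 genes that averaged at least 0.5 FPKM, ordered by their level in vehicle, where each point is 1 library. SDC4 and CD44 lie above their vehicle point in both rhFGF19 libraries, a direction that turns with the GC trend removed, and SDC1 and GPC1 below it, and the 3 low genes SDC2, HAS2 and VCAN lie between 0.63 and 2.15 FPKM.

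Before any account of base composition, the balance of the syndecans differed between vehicle and rhFGF19. SDC1 (ENSG00000115884, chromosome 2 from 20200797 to 20225433), a transmembrane heparan sulfate proteoglycan best known from epithelia and plasma cells, had 135, 99.6 and 102 FPKM. SDC4 (ENSG00000124145, chromosome 20 from 45325288 to 45348424), the syndecan of focal adhesions, had 131, 215 and 213 FPKM. SDC1 was thus lower than vehicle at both doses, and its difference stayed below 0 under each alternative tried. It was only -0.10 and -0.088 on the log2 scale with the GC trend of the longest transcript removed. SDC4 was higher than vehicle except where a GC trend or the length trend was removed. The log2 fold changes, taken on log2(FPKM + 0.1), were -0.44 and -0.41 for SDC1 and 0.72 and 0.70 for SDC4. The ratio of SDC4 to SDC1 within a library was 0.973, 2.16 and 2.10. Relative to the median of genes within 1 percentage point of the same transcript GC content, however, SDC4 lay at -0.28 and -0.27 on the log2 scale and SDC1 at -0.059 and -0.049, so that the shift towards SDC4 in this ratio and in the shares was not seen. SDC2 (ENSG00000169439, chromosome 8 from 96493813 to 96611790), the syndecan typical of mesenchymal cells, was low in these cells at 0.66, 1.28 and 1.17 FPKM. Its log2 fold changes were 0.86 and 0.74, and they turned to -0.033 and -0.13 after quantile normalization and to -0.40 and -0.50 with the GC trend of the longest transcript removed. SDC3, the remaining syndecan and not among the 10 genes, had 12.9, 17.1 and 17.3 FPKM. SDC4 made up 46.9%, 64.6% and 64.0% of the summed syndecan FPKM, and SDC1 48.2%, 29.9% and 30.5%. Summed over the 4 syndecans the level was 279, 333 and 333 FPKM.

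GPC1 (ENSG00000063660, chromosome 2 from 240435663 to 240468076) encodes glypican 1, which is tethered to the membrane by a lipid anchor and carries heparan sulfate. Its level was 72.7, 45.4 and 48.5 FPKM. Its log2 fold changes were -0.68 and -0.58 and stayed below 0 under each alternative tried. With the GC trend of the longest transcript removed they were only -0.11 and -0.036. The ratio of SDC4 to GPC1 was 1.80, 4.74 and 4.40. GPC1 was the glypican of these cells, as GPC2 did not exceed 0.34 FPKM and GPC3, GPC4, GPC5 and GPC6 did not exceed 0.06 FPKM in any library. Among syndecans and glypicans together, GPC1 made up 20.6%, 12% and 12.7% of the FPKM. SDC1 took 38.2%, 26.3% and 26.6%, and SDC4 37.2%, 56.8% and 55.8%. Relative to genes of like GC content GPC1 lay at -0.11 and -0.044, above SDC4, so the shift from GPC1 to SDC4 was not seen there either. The summed FPKM of all these carriers was similar in the 3 libraries, at 352, 379 and 382.

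**Figure D2:**
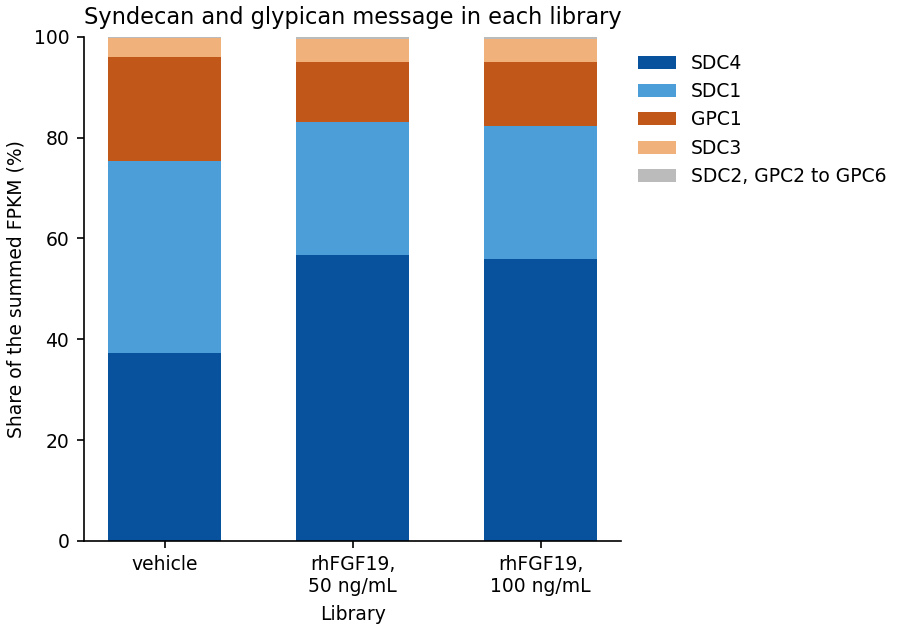
Share of the summed FPKM of syndecans and glypicans taken by each gene, in percent, with 1 bar per library and the bars starting at 0. The SDC4 segment grows from 37.2% in vehicle to 56.8% and 55.8% in the rhFGF19 libraries while the SDC1 and GPC1 segments shrink, a shift not seen relative to genes of like GC content.

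CD44 (ENSG00000026508, chromosome 11 from 35138882 to 35232402), the main cell surface receptor for hyaluronan, had 65.6, 109 and 104 FPKM. Fold changes of 0.73 and 0.66 on the log2 scale were close to those of SDC4. Like them, they turned below 0 in 3 of 13 alternatives at each dose, among them those with a GC trend removed. The ratio of SDC4 to CD44 was 2.0, 1.98 and 2.05. CD44 lay below GPC1 in vehicle, at 0.903 times its level, and above it in the rhFGF19 libraries, at 2.40 and 2.15 times, whereas relative to genes of like GC content CD44 lay at -0.41 and -0.47 and GPC1 at -0.11 and -0.044. The table joins 23 CD44 transcripts in 1 value, so standard and variant forms of the receptor cannot be told apart.

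HAS2 (ENSG00000170961, chromosome 8 from 121612116 to 121641440), the synthase that makes long hyaluronan chains, had 0.66, 2.15 and 1.92 FPKM. Without further scaling of the FPKM, no other of the 10 genes had log2 fold changes as large as its 1.57 and 1.41. After quantile normalization, however, SDC4 and CD44 exceeded HAS2. At these levels the added 0.1 makes the fold changes of HAS2 smaller than the plain ratios. HAS2 was the most abundant synthase, with 65.3%, 73.9% and 76.2% of the summed FPKM of HAS1, HAS2 and HAS3. HAS3 had 0.35, 0.74 and 0.6 FPKM, and HAS1 was listed at 0, 0.02 and 0 FPKM. All synthase message together came to 1.01, 2.91 and 2.52 FPKM, which is far below the receptor.

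Among matrix proteoglycans, HSPG2 (ENSG00000142798, chromosome 1 from 21822244 to 21937310) encodes perlecan, the large heparan sulfate proteoglycan of basement membranes. Perlecan message stood at 7.15, 7.49 and 7.65 FPKM, with log2 fold changes of 0.066 and 0.096. They turned to -0.16 and -0.12 when libraries were centred on the median ratio to vehicle, to -0.38 and -0.34 after quantile normalization, and to -1.04 and -0.99 with the length trend of the longest transcript removed. HSPG2 was a minor part of the basement membrane heparan sulfate carriers, with 5.80%, 6.70% and 7.07% of the FPKM summed over HSPG2, AGRN and COL18A1. AGRN, which encodes agrin, had 78.7, 70.4 and 67.1 FPKM.

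VCAN (ENSG00000038427, chromosome 5 from 83471618 to 83582303) encodes versican, a large chondroitin sulfate proteoglycan that binds hyaluronan. Versican message stood at 0.63, 1.51 and 1.68 FPKM, with log2 fold changes of 1.14 and 1.29. VCAN and HAS2 were thus both low in vehicle and both more than 2-fold higher in each rhFGF19 library, although with the GC trend removed VCAN turned below 0 at 50 ng/mL and HAS2 at 100 ng/mL. BGN (ENSG00000182492, chromosome X from 153494980 to 153509546), a small leucine-rich proteoglycan of collagen fibres, had 0.06, 0.09 and 0 FPKM, too low for a fold change. HAUS7, which lies over BGN on the opposite strand, had 12.6, 7.72 and 8.09 FPKM. Whether reads were counted by strand is not given in the sources used here. The antisense genes HAS2-AS1 and CD44-AS1 did not exceed 0.04 and 0.15 FPKM.

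A gene was counted as higher or lower when its log2 fold change passed 1 in absolute value, a 2-fold difference, among the 12422 symbols that averaged at least 0.5 FPKM over the 3 libraries. Of the 10 genes 8 met that level. At 50 ng/mL rhFGF19, 2 of the 8 were higher than in vehicle, VCAN and HAS2, against 39.5% of all symbols tested, and 0 were lower, against 1.75%. At 100 ng/mL the count was again 2 higher, the same 2 genes, against 38.6% of all symbols, and 0 lower, against 1.47%. These comparisons share the vehicle library and are not independent. The share of 25% higher among the 8 genes was below that of all symbols, so the count says nothing particular about proteoglycans. The 8 genes had median log2 fold changes of 0.72 and 0.68, beside 0.62 and 0.62 over all symbols. In bulk RNA, more cells with a message and more message per cell cannot be told apart.

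The median of all symbols thus lay above 0, and the 8 genes spread on both sides of it. At 50 ng/mL, relative to the median of all symbols, HAS2 lay 0.94 and VCAN 0.52 above it on the log2 scale. SDC2, CD44 and SDC4 lay 0.24, 0.11 and 0.093 above it, so that without further scaling of the FPKM CD44 and SDC4 were near the typical gene. HSPG2, SDC1 and GPC1 lay at -0.56, -1.06 and -1.30 relative to it. At 100 ng/mL the corresponding values were 0.79 for HAS2, 0.67 for VCAN, 0.12 for SDC2, 0.048 for CD44, 0.086 for SDC4, -0.52 for HSPG2, -1.02 for SDC1 and -1.20 for GPC1. Which of these genes lay far from the typical gene depended on the scaling. After quantile normalization the medians of all symbols were 0.10 and 0.085, and SDC4 stood at 0.99 and 0.99, CD44 at 0.97 and 0.88, SDC1 at -0.17 and -0.17 and GPC1 at -0.44 and -0.36. Of all symbols past 2-fold, 95.8% and 96.3% were higher at the lower and higher dose, and these shares were 82.9% and 85.9% with libraries centred on the median ratio to vehicle and 48.3% and 48.2% after quantile normalization.

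**Figure D3:**
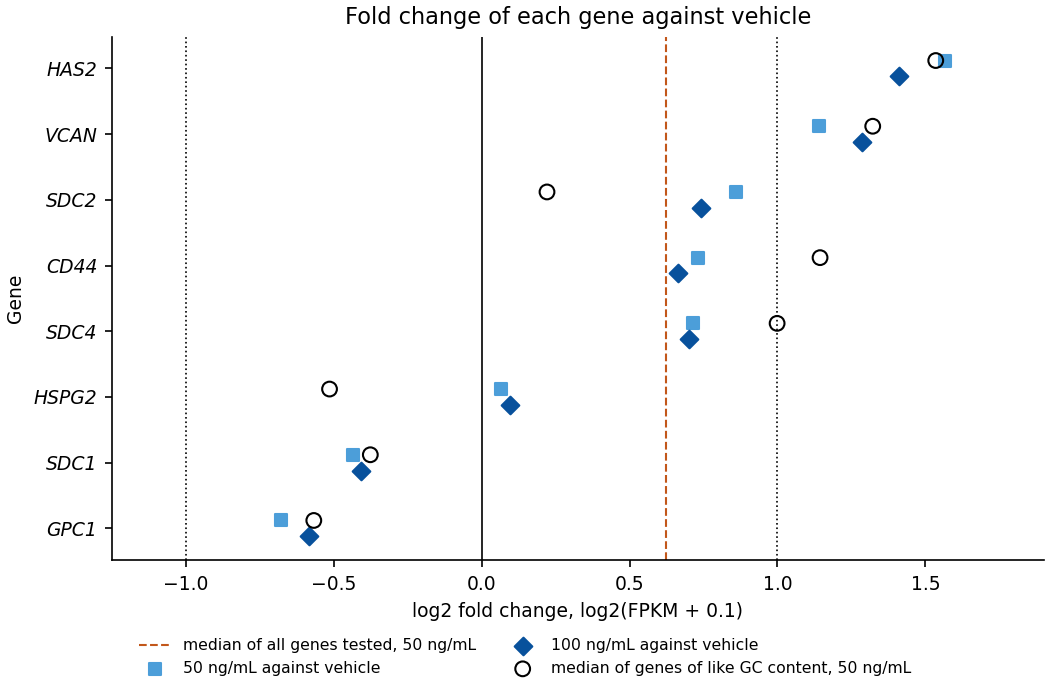
Log2 fold change of the 8 genes against vehicle at 50 ng/mL (squares) and 100 ng/mL (diamonds), with the median of all genes tested (dashed line), 2-fold limits (dotted lines) and, as open circles, the median of genes of like transcript GC content at 50 ng/mL. HAS2 and VCAN pass the 2-fold limit at both doses, though not after quantile normalization, and each does so beside GC neighbours whose median passes it too.

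Between the doses the 8 genes hardly differed. At 100 against 50 ng/mL, 0 of 8 were higher, against 0.845% of all symbols tested, and 0 were lower, against 0.797%. The differences ran from -0.16 for HAS2 to 0.14 for VCAN, with -0.014 for SDC4, 0.027 for SDC1, -0.066 for CD44 and 0.094 for GPC1. Over all symbols that averaged at least 20 FPKM, 95% differed by less than 0.17 between the rhFGF19 libraries, and the fold changes of SDC1, SDC4, GPC1 and CD44 against vehicle were larger than that before any adjustment, but those of SDC1 and GPC1 were not relative to genes of like GC content. For symbols between 0.5 and 2 FPKM the same limit was 0.91, which VCAN and HAS2 passed at both doses and SDC2 did not, and after quantile normalization VCAN and HAS2 did not pass it either, at 0.26 and 0.41 for VCAN and 0.68 and 0.53 for HAS2. Over all symbols tested, the median absolute log2 fold change against vehicle was 0.82 and 0.79, and 39.5% and 38.6% were higher by more than 1. Passing either limit therefore does not mark a gene out. The spread behind these limits is between libraries of different dose and is no substitute for replicate cultures.

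The fold changes against vehicle followed the base composition of the transcripts. Across 12397 genes the Spearman correlation of the log2 fold change with transcript GC content was -0.77 and -0.77 at the lower and higher dose, while it was 0.068 for 100 against 50 ng/mL. These are correlations across genes that share their libraries. In the fifth of genes with the lowest GC content, up to 43.1%, 87.9% were more than 2-fold higher at 50 ng/mL, and in the fifth with the highest, from 59.4%, 2.14% were. Most of the 8 genes followed the same trend, with HSPG2 above it and SDC2 above or below it depending on the transcript used. HAS2 had the lowest GC content, 36.9%, and the largest fold change, and the GC content of VCAN was 44.8%, of CD44 46.6% and of SDC4 48.8%. SDC1 at 60.1% and GPC1 at 64.9% had fold changes below 0. The part of base composition in these differences cannot be told apart from that of rhFGF19 with 1 vehicle library.

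**Figure D4:**
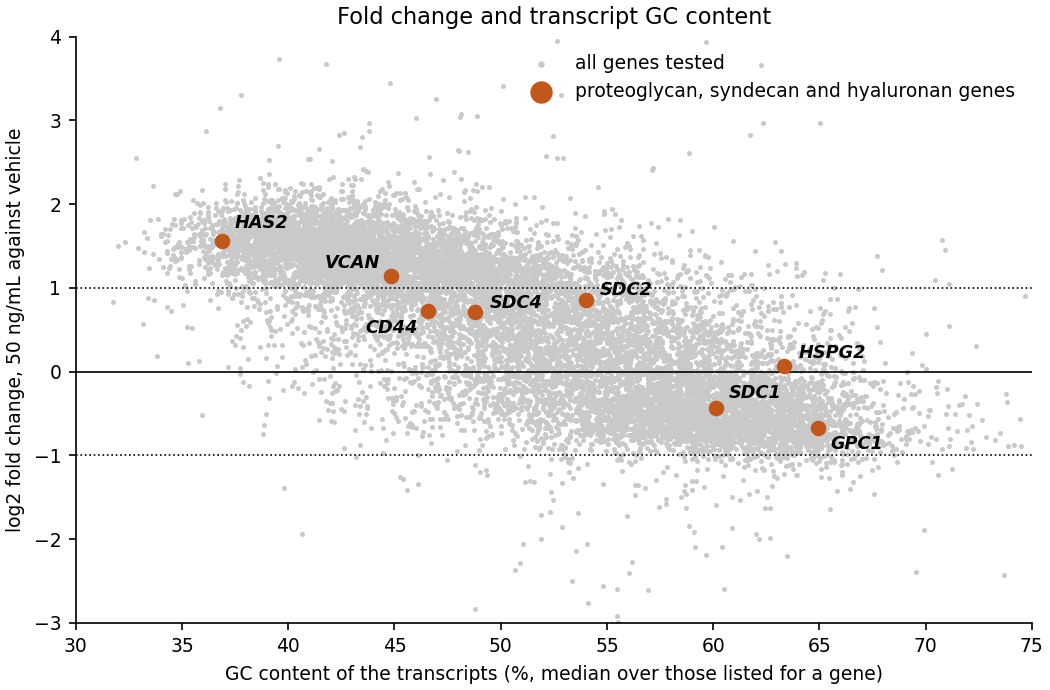
Log2 fold change at 50 ng/mL against vehicle (vertical axis) and GC content of the transcripts in percent (horizontal axis), with 1 grey point per gene tested and the 8 proteoglycan, syndecan and hyaluronan genes in colour (38 genes lie outside the axes). The cloud falls from left to right, and HSPG2 and SDC2 lie in its upper part at their GC content while CD44 lies in its lower part, though with the GC content of its longest transcript SDC2 lies below its neighbours.

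Each gene was therefore set beside genes within 1 percentage point of its GC content. HAS2 differed from the median of its 311 neighbours by 0.031 and -0.096, and 90.7% of those neighbours were more than 2-fold higher at 50 ng/mL. VCAN differed from its 962 neighbours by -0.18 and -0.015, with 74.6% of them more than 2-fold higher. SDC1 and GPC1 were likewise near their neighbours, at -0.059 and -0.049 for SDC1 and -0.11 and -0.044 for GPC1. HAS2, SDC1 and GPC1 thus stood out little from transcripts of their own composition, as did VCAN at 100 ng/mL.

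HSPG2, CD44 and SDC4 lay further from the median of their neighbours, though within the middle 80% of them. HSPG2, whose level was nearly the same in the 3 libraries, lay 0.58 above the median of its 624 neighbours at the lower and 0.60 above it at the higher dose, higher than 87.0% and 86.9% of them. CD44 lay at -0.41 and -0.47 relative to its neighbours, above 25.2% and 22.9% of them, and SDC4 at -0.28 and -0.27, above 35.4% and 33.5%, so that both were higher than vehicle and lower than genes of like composition. SDC2 lay 0.64 and 0.54 above its neighbours with the median GC content of its 2 transcripts, 54.0%, but at -0.44 and -0.54 with that of the longer one, 43.9%. That alternative, chosen after seeing the data, turned the direction for SDC2. For HSPG2 it gave 0.63 and 0.65, for CD44 -0.50 and -0.55, for SDC4 -0.14 and -0.15 and for VCAN -0.20 and -0.028.

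The promoters of the 4 most abundant genes are shown for their base composition and for motifs of factors that act near start sites. The RefSeq windows (GRCh38.p14) hold 250 bases before and 50 bases after a start, and 7 of the 10 genes had at least 1, with none listed for DCN, SDC2 and HAS2. Capitals mark the GC box GGGCGG on either strand, and the TATA box TATAAA, the AP-1 motif TGANTCA and the STAT motif TTCNNNGAA were searched on both strands as well.
SDC4, chr20:45348375-45348674, minus strand: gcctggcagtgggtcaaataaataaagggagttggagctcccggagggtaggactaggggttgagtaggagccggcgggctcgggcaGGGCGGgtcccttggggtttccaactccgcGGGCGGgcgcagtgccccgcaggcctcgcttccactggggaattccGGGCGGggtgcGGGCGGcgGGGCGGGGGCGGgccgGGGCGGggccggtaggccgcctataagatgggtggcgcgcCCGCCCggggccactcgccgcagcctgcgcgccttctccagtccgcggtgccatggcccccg
CD44, chr11:35138921-35139220, plus strand: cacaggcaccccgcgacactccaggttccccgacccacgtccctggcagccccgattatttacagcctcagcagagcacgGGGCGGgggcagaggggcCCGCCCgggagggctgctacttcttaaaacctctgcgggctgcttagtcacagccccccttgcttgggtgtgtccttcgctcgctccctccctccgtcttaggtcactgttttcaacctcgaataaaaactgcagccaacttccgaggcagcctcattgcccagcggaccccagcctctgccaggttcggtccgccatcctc
SDC1, chr2:20225426-20225725, minus strand: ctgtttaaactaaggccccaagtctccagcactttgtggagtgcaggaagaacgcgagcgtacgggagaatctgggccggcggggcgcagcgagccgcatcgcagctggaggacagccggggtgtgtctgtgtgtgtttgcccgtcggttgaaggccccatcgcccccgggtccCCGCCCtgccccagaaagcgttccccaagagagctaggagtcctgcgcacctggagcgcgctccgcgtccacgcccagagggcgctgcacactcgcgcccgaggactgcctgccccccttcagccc
GPC1, chr2:240435413-240435712, plus strand: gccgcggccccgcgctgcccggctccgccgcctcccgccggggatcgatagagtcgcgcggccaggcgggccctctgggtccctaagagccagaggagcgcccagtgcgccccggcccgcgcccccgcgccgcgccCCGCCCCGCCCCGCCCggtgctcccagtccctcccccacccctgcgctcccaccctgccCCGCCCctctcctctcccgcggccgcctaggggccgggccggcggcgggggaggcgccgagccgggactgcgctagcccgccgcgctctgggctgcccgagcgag
The GC box occurred 8 times in the SDC4 window, 4 times in GPC1, 2 times in CD44 and 1 time in SDC1, and some matches overlap or adjoin each other. It occurred 10 times in HSPG2, 5 times in BGN and 1 time in VCAN, and 45.0% of the 35116 windows in the table held at least 1. The TATA, AP-1 and STAT motifs had 0 matches in the 7 windows searched, 1 for each gene, and 11.5%, 7.71% and 7.66% of all windows held them. The GC content of the windows was 74.0% for SDC4, 63.3% for CD44, 67.7% for SDC1 and 83.3% for GPC1. SDC4 thus combined a window more GC-rich than the median of all windows, 58.7%, with a transcript of 48.8% GC. So did CD44, with a transcript of 46.6% GC, and VCAN, with a window of 60.3% and a transcript of 44.8%. GPC1 was GC-rich in both. For CD44 the transcription start inside the window lies 289 bases from the start of the gene in the deposited table, and for SDC1 42 bases. SDC1 has a further window in the table, which was left out because its transcription start lies further from that of the gene.

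The enzymes that build and trim the chains were described with lists of the same pathway. Their counts are to be read beside all symbols, of which 39.5% and 38.6% were higher, with medians of 0.62 and 0.62. Of 11 heparan sulfate genes tested, 7 and 6 were higher at the lower and higher dose, or 63.6% and 54.5%, and 0 were lower, with medians of 1.16 and 1.06, or 0.084 and 0.11 with the GC trend removed. GLCE, the epimerase that converts glucuronic to iduronic acid, had 2, 6.16 and 6.23 FPKM, and EXT2, a subunit of the chain polymerase, had 6.19, 14.3 and 13.9 FPKM. EXTL2 and HS2ST1 were also higher at both doses, with log2 fold changes from 1.28 to 1.54, but with the GC trend removed HS2ST1 turned to -0.16 and -0.066. NDST1, which starts the sulfation of the chains and was the most abundant of the list, had 11.7, 20.6 and 20.6 FPKM, and lay 1.29 and 1.26 above genes of like GC content, or 0.99 and 0.96 with the GC content of its longest transcript.

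Of 14 genes for the linkage region and for sugar nucleotide and sulfate supply, 8 or 57.1% were higher and 0 lower at each dose, with medians of 1.13 and 1.22, or 0.034 and 0.054 with it removed. UGDH, which makes the UDP-glucuronic acid used for hyaluronan and for sulfated chains, had 2.24, 6.63 and 6.78 FPKM, and PAPSS1, which makes the sulfate donor, had 3.66, 11 and 10.1 FPKM. SLC26A2, a sulfate transporter, had 0.29, 1.05 and 1.25 FPKM and UGP2 1.6, 4.86 and 4.62 FPKM. The most abundant genes of the list went the other way without passing 2-fold, SLC35B2 with 115, 71.0 and 76.7 FPKM and B3GAT3 with 30.7, 16.3 and 16.4 FPKM. Among 13 genes of chondroitin and dermatan sulfate synthesis, 4 or 30.8% were higher, a smaller share than of all symbols, and 0 lower at each dose, with medians of 0.94 and 0.87, or -0.0067 and 0.072 with it removed. Their most abundant genes, CHPF with 95, 55.0 and 55.3 FPKM and CHST14 with 88.9, 67.3 and 66.9 FPKM, were lower than in vehicle without passing 2-fold, while DSEL, CSGALNACT2 and CHST15 had log2 fold changes from 1.28 to 1.51, which turned below 0 with the GC trend removed for CSGALNACT2 at both doses and for DSEL at the lower.

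Around hyaluronan, 3 of 7 genes or 42.9% were higher and 0 lower at each dose, near the 39.5% and 38.6% of all symbols, with medians of 0.90 and 0.64, or 0.26 and -0.019 with the GC trend removed. HMMR, a hyaluronan-binding protein of the mitotic spindle, had 1.04, 5.18 and 4.9 FPKM. CEMIP and CEMIP2, which take part in hyaluronan breakdown, had 0.65, 1.58 and 1.6 FPKM and 0.7, 2.26 and 1.8 FPKM. With the GC trend removed, HMMR stayed at 0.70 and 0.63 on the log2 scale and CEMIP at 0.82 and 0.85. CEMIP2 was then at 0.26 at 50 ng/mL and turned below 0 at 100 ng/mL. The hyaluronidase HYAL2, the most abundant of the list, had 23.8, 13.7 and 13.8 FPKM, and HYAL3 9.54, 5.57 and 5.39 FPKM. Among 8 other core proteins tested, 4 or 50% were higher and 0 lower at each dose, with medians of 0.79 and 0.80, or 0.24 and 0.23 with it removed. SRGN, the core protein of secretory granules, had 26.5, 72.7 and 75.6 FPKM and ESM1, an endothelial-type secreted proteoglycan, 3.89, 10.3 and 11 FPKM, while TGFBR3 and SPOCK1 had log2 fold changes from 1.17 to 1.31. With a GC trend removed, that of the transcripts or that of the longest, each of these 4 turned below 0 at 1 or both doses.

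Of 8 genes for cleavage and shedding, 3 or 37.5% were higher and 0 lower at each dose, about the 39.5% and 38.6% of all symbols, with medians of 0.18 and 0.12, or 0.25 and 0.21 with the GC trend removed. ADAM10 and ADAM17, proteases that shed syndecans and CD44 from the cell surface, had 0.86, 3.28 and 3.04 FPKM and 0.34, 1.15 and 1.2 FPKM, and ADAMTS1, which cuts versican, had 3.05, 8.34 and 7.88 FPKM. MMP14, another sheddase of SDC1 and CD44 and the most abundant of the list, had 86.9, 87.2 and 86.8 FPKM, and BMP1 had 20.7, 18.4 and 16.4 FPKM. With the GC trend removed, 2 heparan sulfate genes and 2 chondroitin genes were past 2-fold higher at each dose, 1 hyaluronan gene was at the lower dose alone, and the other lists had 0, beside 3.74% and 3.33% of all symbols. These are not the genes named above as past 2-fold, none of which stayed past it. With the GC trend of the longest transcript removed, the counts were 1 heparan sulfate gene and 1 chondroitin gene at each dose and 0 hyaluronan genes, and NDST1 was not past 2-fold.

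**Figure D5:**
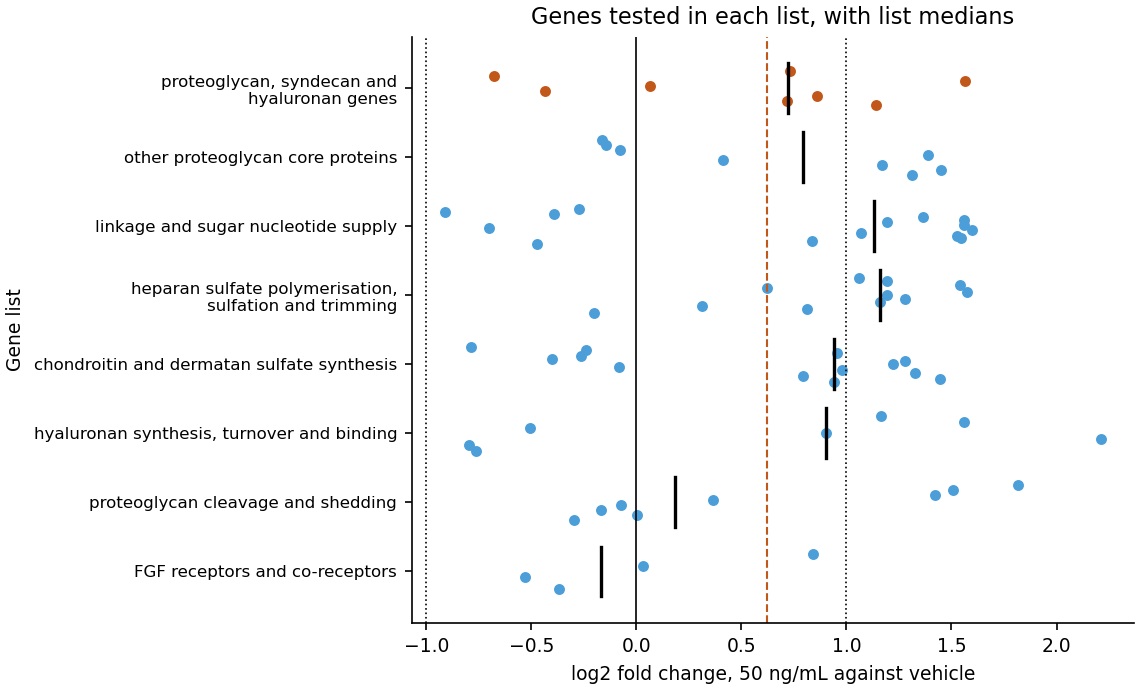
Log2 fold change at 50 ng/mL against vehicle of each gene tested in 8 lists, with 1 point per gene, list medians as black bars, the median of all genes tested as a dashed line and the 2-fold limits as dotted lines. The 8 proteoglycan, syndecan and hyaluronan genes run from -0.68 to 1.57, and no list has a gene below the lower limit.

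The receptors whose ligands these carriers hold were low beside them. FGFR1, the most abundant FGF receptor kinase, had 8.86, 16.0 and 14.7 FPKM, FGFR3 1.2, 1.23 and 1.09 FPKM and FGFR4 1.79, 1.21 and 1.31 FPKM. KLB, the co-receptor that FGF19 uses, was listed at 0, 0 and 0.02 FPKM, and FGFR2 was not analysed here. Of the 4 genes of this list tested, 0 were past 2-fold in either direction at either dose, with medians of -0.17 and -0.21, or 0.34 and 0.28 with the GC trend removed, and FGFRL1 had 12.1, 9.37 and 9.85 FPKM. SDC4 stood at 131 FPKM in vehicle beside 1.79 FPKM of FGFR4 and no listed KLB. These are levels of message and not of protein. The publication reports that tyrosine phosphorylation of FGFR4 protein rose in LX-2 cells given FGF19.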

How the data were processed

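Poly(A) mRNA of 3 LX-2 cultures was sequenced as paired reads. Mapping was by HISAT2, and the authors deposited FPKM with 2 decimals for 26108 genes. The submitters' processing notes name HISAT2 2.0, StringTie 1.3.0 and Bowtie 0.12.2, and the builds hg19 and mm8 with no role. Deposited positions overlapped GRCh38 for 99.7% of the 25531 identifiers found in GENCODE v29, and GRCh38 is used here. In genes with 1 transcript of 150 to 900 bases, FPKM times length piled up near 27.3, 25.7 and 26.8 in the vehicle, 50 and 100 ng/mL libraries, as steps of 1 fragment of similar worth would. Of the values below 100, however, 28.3%, 27.9% and 26.6% lay near whole multiples, so reads were not recovered and no count test was run. This check was added after seeing the data.

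Rows of a symbol were summed and single libraries were compared on log2(FPKM + 0.1) where a symbol averaged at least 0.5 FPKM, at the study's limit of an absolute log2 fold change above 1. No p-value was computed. GC content and length were medians over the GENCODE v29 transcripts listed for a gene, found for 99.8% of symbols tested, and trends were removed by locally weighted regression (span 0.3). The members and lists were chosen with earlier results of these data known, and 1 of the planned lists is not reported here. Beside the 10 genes, up to 4 genes a list were eligible for naming that passed the limit at both doses, taken in falling order of the smaller fold change, plus the 2 most abundant, the FGF receptors and KLB, and of markers the most abundant and those at 0. The syndecans, glypicans, hyaluronan synthases, AGRN, COL18A1, overlapping genes and other markers with values were named after their values were seen. Alternatives were 11 planned and 2 added after seeing the data. The procedure was tested on simulated data. Python 3.11.15, NumPy 2.4.6, pandas 2.3.3, SciPy 1.17.1, statsmodels 0.14.6 and Matplotlib 3.10.9 were used.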

Additional observations from a re-analysis of the deposited data

How the results depend on the processing

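The numbers of genes past 2-fold at 50 and 100 ng/mL, 2 and 2 higher and 0 and 0 lower, depended on the setting, as did the shares of all symbols. With a pseudocount of 1, 0 were higher at either dose (17.6% and 16.7% of all symbols). With libraries centred on the median ratio to vehicle, 1 was higher at 50 ng/mL (30.4%). After quantile normalization 0 were higher at either dose (9.20% and 8.40%), and the medians were 0.11 and 0.14. With the GC trend removed 0 were higher (3.74% and 3.33%), and the medians were -0.12 and -0.089. With the length trend removed 0 were higher (14.0% and 13.6%), 1 was lower at 50 ng/mL (16.2%), and the medians were 0.061 and 0.011. With a limit of 1.5-fold, 5 were higher at each dose (51.0% and 50.8%) and 1 lower at 50 ng/mL (13.5%). Of the alternatives added after seeing the data, the GC trend of the longest transcript gave 0 higher (3.28% and 2.94%) and medians of -0.11 and -0.069, and its length trend gave 0 higher (12% and 11.5%), 2 and 1 lower (12.8% and 12%), and medians of -0.072 and -0.081. The other settings kept each of these counts within 1.5 times and each median within the spread between the rhFGF19 libraries, and 0 genes passed 2-fold between doses in any setting.

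Among members and named list genes past 2-fold at both doses, directions turned only with a GC trend removed. The marker COL3A1 and list genes that were not named are outside this statement. With the planned trend, VCAN was at -0.13, SRGN at -0.060, HS2ST1 at -0.16, DSEL at -0.0067 and CSGALNACT2 at -0.18 at 50 ng/mL, and HAS2 at -0.10, TGFBR3 at -0.047, HS2ST1 at -0.066, CSGALNACT2 at -0.16 and CEMIP2 at -0.033 at 100 ng/mL. With that of the longest transcript, VCAN was at -0.18, SRGN at -0.012, ESM1 at -0.037, SPOCK1 at -0.063, HS2ST1 at -0.19 and CSGALNACT2 at -0.14 at 50 ng/mL, and VCAN at -0.013, HAS2 at -0.060, TGFBR3 at -0.072, SPOCK1 at -0.010, HS2ST1 at -0.11 and CSGALNACT2 at -0.12 at 100 ng/mL. These alternatives subtract what genes of like GC content share. Below 2-fold, SDC1 and GPC1 stayed below 0 in 13 of 13 alternatives at each dose, SDC4 and CD44 were above 0 in 10 and below in 3, SDC2 above in 11 and HSPG2 above in 9.

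No paired analysis was possible because each condition has 1 library. The single vehicle culture enters each comparison with rhFGF19, so its own state cannot be told apart from the treatment. Read numbers are not known, and the low levels of VCAN, HAS2 and SDC2 carry an unknown counting error.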
